A study of Homo sapiens with 12 samples.

Results

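hsa_circ_0001206 and hsa_circ_0001181 are 2 of the 6384 circular RNAs (circRNAs) counted in this experiment. They were chosen by identifier, because both had counts in every IGF2BP2 pulldown of parental and of resistant cells, at levels taken as stable. The choice also rested on no counts in the IgG background of parental cells and some in that of resistant cells. Those counts made the choice, so the levels and ratios of both circRNAs are given as a description, with no test. Shares of all circRNAs called by the fit are given beside them as background only. Both were among the 1307 circRNAs that reached 2 counts in 3 or more libraries, the set used for fits across the table. hsa_circ_0001206 has been reported under the name circCRKL. The deposited table gives no host gene for either identifier, and no sequence.

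circRNAs are closed transcripts made when a downstream splice donor joins an upstream acceptor, and without free ends they are resistant to exonucleases. IGF2BP2 is an RNA-binding protein with RRM and KH domains known to stabilise target RNAs and to promote their translation, MYC mRNA among the known targets of its family. CRKL, the reported host of hsa_circ_0001206, encodes an adaptor protein with SH2 and SH3 domains that links tyrosine-phosphorylated proteins to downstream signalling. RNA immunoprecipitation (RIP) recovers RNA bound to a protein, and a control with non-specific IgG measures what sticks to antibody and beads.

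The cells were MDA-MB-231, an established triple-negative breast cancer line. The parental line (Sens) was wild type and untreated. The derived line (Res) had established resistance to BET inhibitors, which block bromodomain and extra-terminal proteins, and stayed under inhibitor until harvest, so resistance and drug exposure cannot be told apart. The labels name neither the inhibitor nor whether Res is 1 clone. Lysate of each line was precipitated with an anti-IGF2BP2 monoclonal antibody or with normal rabbit IgG, in 3 libraries for each of the 4 groups, 12 in all. Whether replicates were separate cultures is not stated, so the spread between them may be technical. The file holds no linear transcripts, so markers of the cell line were not analysed here.

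Depth was low and uneven. Pulldown libraries held 4448 to 5561 circRNA counts in Sens and 5179 to 8662 in Res, and IgG libraries held 1960 to 2989 in Sens and 3860 to 6036 in Res. ERCC spike-in RNA took 97.8% to 97.9% of all counts in Sens IgG and 93.5% to 93.8% in Res IgG, against 10.6% to 12.4% in Sens RIP and 7.51% to 10.9% in Res RIP. Values after ± are SDs over n = 3 libraries. RPM is a count divided by the circRNA counts of its library, times 1e+06. CPM is the same with the effective library size from TMM as the divisor, a scaling that assumes most circRNAs do not differ. The fit called 883 of the 1307 tested circRNAs between the IgG groups and 780 between Res RIP and Res IgG. Ratios in CPM between those groups thus rest on an assumption that the calls go against, and other scalings are given beside them.

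In parental cells, hsa_circ_0001206 was counted 15, 15 and 17 times in the pulldowns of replicates 1, 2 and 3. It had 0 counts in each of the 3 IgG libraries. hsa_circ_0001181 was counted 19, 17 and 18 times in the same pulldowns and also 0 times in each IgG library. The pulldown values of both were thus close together and lay above IgG in every library. In RPM the Sens RIP levels were 3221 ± 566 for hsa_circ_0001206 and 3676 ± 330 for hsa_circ_0001181.

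In resistant cells the pulldown counts were more uneven. hsa_circ_0001206 had 25, 10 and 10 counts in Res RIP and 7, 10 and 6 in Res IgG. Its highest pulldown value was that of replicate 1, and the pulldown and IgG counts met at 10 in replicate 2, although the pulldown library of that replicate was the deepest, at 8662 circRNA counts against 5396 for its IgG library. hsa_circ_0001181 had 14, 32 and 9 counts in Res RIP and 2, 5 and 3 in Res IgG. Its highest value was that of replicate 2, and every pulldown count was above every IgG count. In RPM the Res RIP levels were 2484 ± 1675 and 2626 ± 991 for hsa_circ_0001206 and hsa_circ_0001181, and the Res IgG levels were 1554 ± 485 and 647 ± 242.

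**Figure D1:**
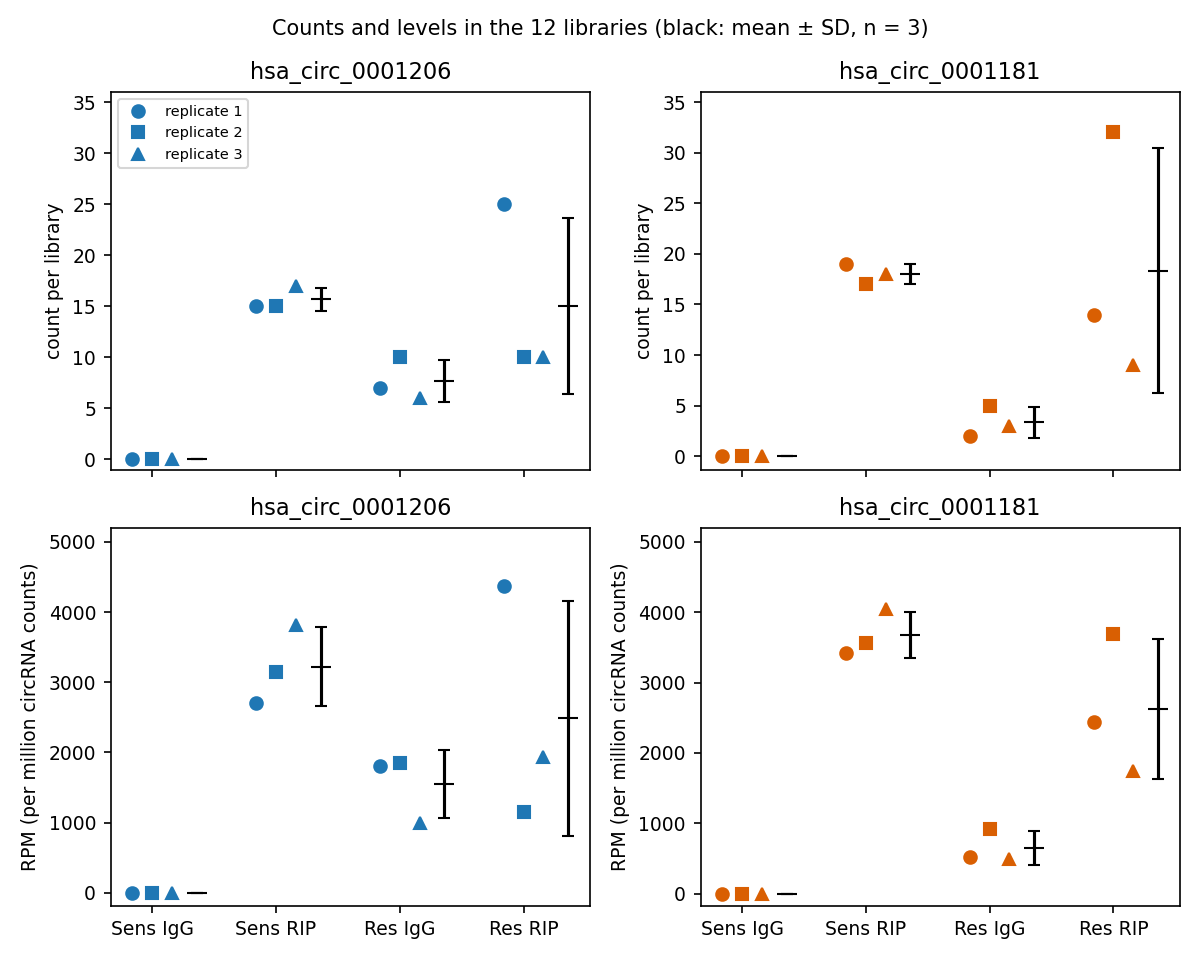
Counts per library (upper row) and RPM (lower row) of hsa_circ_0001206 (left) and hsa_circ_0001181 (right) in the 4 groups; symbols mark the replicate number and black bars the mean ± SD over 3 libraries. Both circRNAs are at 0 in Sens IgG, and in Res RIP replicate 1 is highest for hsa_circ_0001206 (25 counts) and replicate 2 for hsa_circ_0001181 (32 counts).

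Summed over the 3 libraries, the pulldown counts of the lines were nearly equal. A stable pulldown was part of the choice, so nothing is read from this likeness. hsa_circ_0001206 had 47 counts in Sens RIP and 45 in Res RIP, and hsa_circ_0001181 had 54 and 55. The Res RIP libraries were deeper, with 19568 circRNA counts together against 14780, so the share of the pulldown was lower in Res. hsa_circ_0001206 made up 0.318% of Sens RIP counts (exact 95% binomial interval 0.234% to 0.423%) and 0.230% of Res RIP counts (0.168% to 0.308%). hsa_circ_0001181 made up 0.365% (0.275% to 0.476%) and 0.281% (0.212% to 0.366%). The intervals of the lines overlapped for each circRNA. All intervals and limits come from summed counts, so they cover counting error alone and not the spread between libraries. PCR copies were not marked by molecular identifiers, so even the counting error may be larger.

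In mean CPM, the pulldown of hsa_circ_0001206 went from 5528 ± 725 in Sens to 4026 ± 2561 in Res. That is a Res to Sens ratio of 0.728 by mean CPM and 0.694 by summed counts (exact 95% interval 0.451 to 1.07). The mean CPM of hsa_circ_0001181 was 6326 ± 306 in Sens and 4360 ± 1785 in Res, a ratio of 0.689, or 0.738 by summed counts (0.498 to 1.09). The CPM ranges of the lines overlapped for both. The edgeR fit of all 1307 circRNAs gave a Res minus Sens log2 fold change of -0.50 (SE 0.37) for hsa_circ_0001206 and -0.47 (SE 0.35) for hsa_circ_0001181. As background, that fit called 2.37% of the 1307 circRNAs between the pulldowns in either direction. The intervals leave room for a fall to below 0.5 of the parental level and for a small rise, so equal pulldown was not shown.

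Per 1000 ERCC counts the levels of the lines were closer. hsa_circ_0001206 had 19.6, 22.2 and 32.1 in Sens RIP and 35.7, 14.2 and 22.3 in Res RIP. Its ratio of means was 0.977. hsa_circ_0001181 had 24.9, 25.1 and 34.0 in Sens RIP and 20, 45.5 and 20.1 in Res RIP, a ratio of 1.02. This scale gives counts per amount of purified RNA put into the library, because the labels say that spike-in was mixed into equivalent amounts of RNA, and not per amount precipitated. On it the sign of the line difference of hsa_circ_0001181 turned, and all tested circRNAs shifted up between the pulldowns by a median of 0.39 on the log2 scale.

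Both circRNAs had IgG counts in Res only, which is part of how they were chosen. With 7794 circRNA counts over the 3 Sens IgG libraries, 0 counts allow a share of up to 0.0385% (3 counts of the total). In Res IgG, hsa_circ_0001206 had 23 counts of 15292, a share of 0.150% (exact 95% interval 0.0954% to 0.226%). hsa_circ_0001181 had 10, a share of 0.0654% (0.0314% to 0.120%). The lower bound for hsa_circ_0001206 was above the Sens limit, while that for hsa_circ_0001181 was below it. At the Res IgG shares, the Sens IgG libraries together would have held 11.7 counts of hsa_circ_0001206 and 5.10 of hsa_circ_0001181. In CPM the observed Res IgG level was at least 7.98-fold that of Sens IgG for hsa_circ_0001206 and at least 3.37-fold for hsa_circ_0001181, set against 3 counts over the Sens IgG group. Such a bound takes the other group at its observed level. With the counting error of both groups, the exact 95% interval of the ratio of summed counts began at 5.78 and 2.26. With column totals the bounds were 4.04-fold and 1.68-fold, and the intervals began at 2.93 and 1.14. With spike-in totals the bounds were 12.5-fold and 5.22-fold. These limits, bounds and intervals describe a difference that the choice itself fixed, so they test nothing.

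A rise of this kind was frequent among the 1307 tested circRNAs, a set that a circRNA could enter through Res IgG counts alone. Res IgG lay above Sens IgG without overlap for 45.8% of the 1307 circRNAs, and edgeR called 49.3% of them higher in Res IgG at an adjusted p under 0.05. With no filter, edgeR called 610 of all 6384 circRNAs higher, so these shares hold for the filtered set only. No Sens IgG count with a count in all 3 Res IgG libraries was found for 561 of the 1307 (42.9%). The choice of the pair fixed its side of this comparison. Between the IgG groups the 1307 circRNAs had a median log2 change of 1.68. Among the 777 tested circRNAs with any Res IgG count, the median summed count was 12 (quartiles 8 and 18), and the most frequent sum was 11. The 10 counts of hsa_circ_0001181 lay below that median. The 23 counts of hsa_circ_0001206 lay above the upper quartile, and 85.8% of the 777 had as many or fewer.

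The pulldown over IgG in Sens was a lower bound for both. Against 3 counts over Sens IgG, the observed pulldown was at least 33.8-fold higher for hsa_circ_0001206 and at least 38.7-fold higher for hsa_circ_0001181 in mean CPM. With the counting error of both groups, the exact 95% interval of the ratio of summed counts began at 26.3 and 30.4. Pulldown lay above IgG without overlap for 24.4% of the 1307 circRNAs, and 39.8% were called higher by edgeR. Counts in every Sens pulldown and none in Sens IgG were part of the choice, so nothing is read from the pair being on that side. The bounds were 8.37-fold and 9.55-fold with column totals. TMM accounts for that difference by its construction, since it set the effective sizes of the Sens IgG libraries to 4993 to 6957 and those of the Sens RIP libraries to 2696 to 3078. With spike-in totals the bounds were 2905-fold and 3301-fold, on a scale where the 1307 circRNAs had a median log2 change of 7.63 in Sens.

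In Res, where both groups had counts, hsa_circ_0001206 was 3.09-fold higher in the pulldown by mean CPM and 3.03-fold by summed counts (exact 95% interval 1.79 to 5.24). The fit gave a log2 fold change of 1.60 (SE 0.41). hsa_circ_0001181 was 7.92-fold higher by mean CPM and 8.51-fold by summed counts (4.30 to 18.7), with a log2 fold change of 2.99 (SE 0.46). The groups did not overlap in CPM for either circRNA, as for 27.2% of all tested, and 33.7% of all tested were called higher by edgeR. The size of the ratio of hsa_circ_0001206 depended on the scaling and moved with 1 library. By column totals its ratio was 1.60, or 1.53 by summed counts (0.906 to 2.65), and the pulldown value of replicate 2, 1154 RPM, lay below the IgG values of 1813 and 1853 RPM in replicates 1 and 2. Without Res RIP replicate 1 its log2 ratio of mean CPM went from 1.63 to 0.87. hsa_circ_0001181 kept a ratio of 4.06 with column totals, with every Res RIP value above every Res IgG value (lowest 1738 RPM in the pulldown, highest 927 RPM in IgG). With spike-in totals the ratios were 226 and 644, on a scale where the 1307 circRNAs had a median log2 change of 6.01 in Res.

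**Figure D2:**
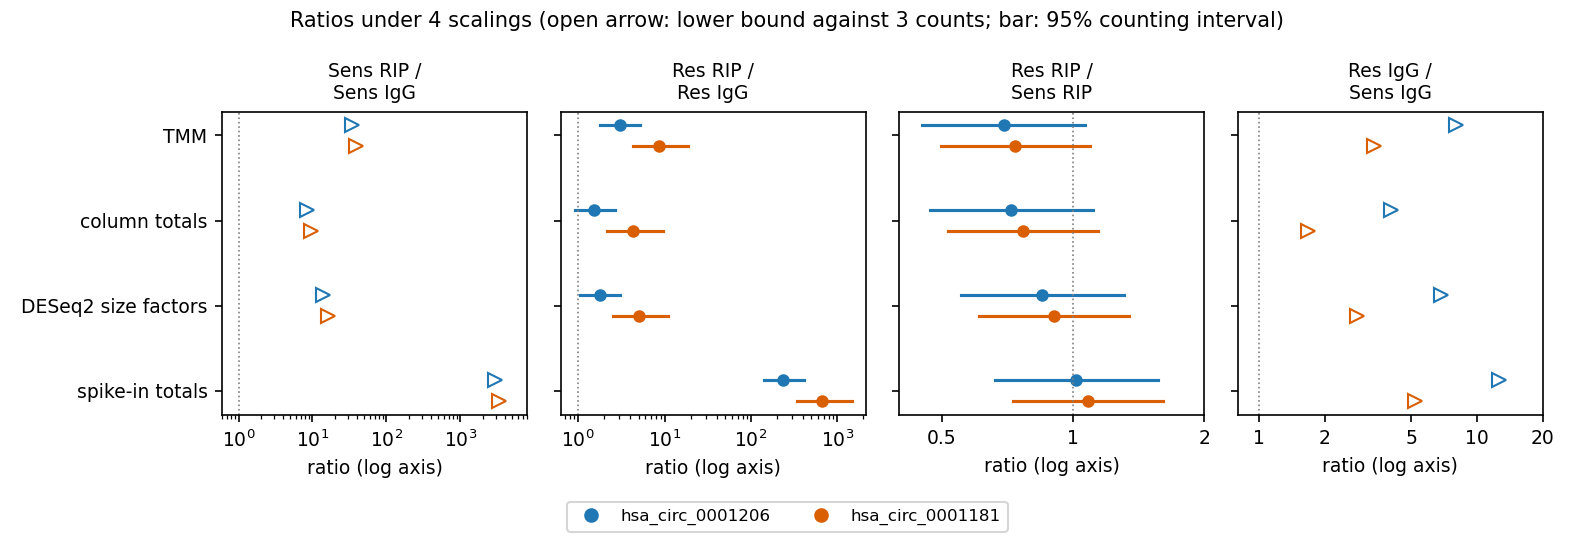
Ratios between groups for hsa_circ_0001206 (blue) and hsa_circ_0001181 (orange) under 4 scalings, on log axes. Filled points are ratios of summed counts with exact 95% counting intervals and open arrows are lower bounds of mean levels against 3 counts over a group at 0; the Res to Sens pulldown intervals span 1 under every scaling shown, and the Res RIP to IgG interval of hsa_circ_0001206 spans 1 with column totals.

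The study asked which circRNAs lost association with IGF2BP2 as resistance arose, by a delta of pulldown minus IgG in RPM, Res minus Sens. For hsa_circ_0001206 the difference was 3221 RPM in Sens and 929.97 RPM in Res, a delta of -2291 (SE 1059). For hsa_circ_0001181 it was 3676 and 1978 RPM, a delta of -1697 (SE 619). These SEs come from the spread within groups, so Sens IgG, at 0 in every library, enters them as if known without error. Both are among the 765 of 1307 circRNAs below 0, at places 36 and 76 from the lowest. A delta in RPM is a difference of levels, so circRNAs with few counts can only have a small one. The places thus depend on level, and the pair was at places 35 and 30 of 6384 in mean pulldown CPM. Per 1000 ERCC counts the delta was -0.673 (SE 7.34) for hsa_circ_0001206 and 0.477 (SE 9.01) for hsa_circ_0001181, each smaller than its SE. As a ratio, the pulldown over IgG of hsa_circ_0001206 was at least 10.97-fold lower in Res than in Sens, and that of hsa_circ_0001181 at least 4.89-fold lower, with Sens IgG at 3 counts and the other groups at their observed levels. With column totals these bounds were 5.23-fold and 2.35-fold. As background, edgeR called 13.4% of the tested circRNAs lower in this comparison, and the median log2 change of all tested was -1.32. The tested set includes circRNAs with counts in Res IgG alone, whose change is negative by construction. With no filter, 80 of 6384 circRNAs were called lower. The counts that chose the pair also make up its change in this comparison.

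The parts of the delta differed between the circRNAs. For hsa_circ_0001206 the mean pulldown level was 3221 RPM in Sens and 2484 RPM in Res, and the mean IgG level went from 0 to 1554 RPM, so the change in IgG was the larger term. For hsa_circ_0001181 the pulldown went from 3676 to 2626 RPM and IgG from 0 to 647 RPM, so the change in the pulldown was the larger term. In mean CPM, however, the pulldown term was the larger for both, since IgG went from 0 to 1304 CPM for hsa_circ_0001206 and from 0 to 551 CPM for hsa_circ_0001181 and the pulldown means were 5528 and 4026 CPM and 6326 and 4360 CPM. For hsa_circ_0001206 the SD of the Res pulldown libraries, 1675 RPM, was larger than the pulldown difference. For hsa_circ_0001181 that SD, 991 RPM, was nearly as large as the pulldown difference.

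The circRNAs were also set against each other within the libraries. The count of hsa_circ_0001206 divided by that of hsa_circ_0001181 does not depend on the scaling of a library. It was 0.789, 0.882 and 0.944 in Sens RIP replicates 1, 2 and 3. In Res RIP it was 1.79, 0.312 and 1.11, a wider range on both sides. In Res IgG it was 3.50, 2.00 and 2.00, above every pulldown library of either line, with only 2, 5 and 3 counts of hsa_circ_0001181. By summed counts it was 0.870 in Sens RIP (exact 95% interval 0.576 to 1.31), 0.818 in Res RIP (0.539 to 1.24) and 2.30 in Res IgG (1.05 to 5.41). The summed ratios of the pulldowns were close, while the interval in Res IgG overlapped theirs at its lower end.

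**Figure D3:**
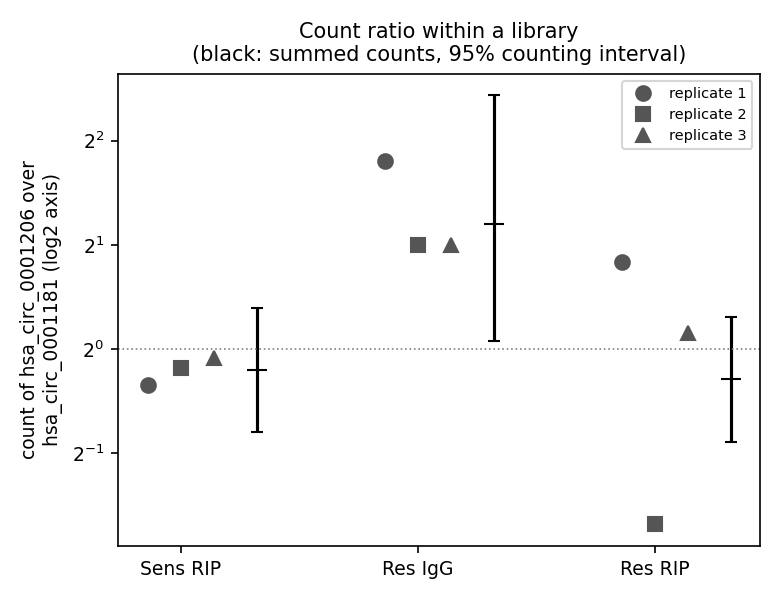
Count of hsa_circ_0001206 over that of hsa_circ_0001181 in each pulldown and Res IgG library, on a log2 axis, with the ratio of summed counts and its exact 95% interval in black. The Sens RIP libraries lie between 0.789 and 0.944, the Res RIP libraries between 0.312 and 1.79, and the Res IgG libraries at 2.00 or above.

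The spread between replicates was set against counting error by an index that is 1 on average where counts vary only with depth (the sum of squared deviations over expected counts, divided by 2). The index and its comparison group were chosen after the values were seen. In Sens RIP it was 0.493 for hsa_circ_0001206 and 0.142 for hsa_circ_0001181. In Res RIP it was 7.94 and 2.40. The intervals from summed counts leave this out, so those with Res RIP counts understate the spread between libraries. Among the 95 tested circRNAs with 0.5 to 2 times the Res RIP count of hsa_circ_0001206, itself included, the median index was 1.18 and none had a higher one. Of the 69 in that range around hsa_circ_0001181, 10 were above it. In Res IgG the indices were 0.864 and 0.475, against medians of 0.887 and 0.750 in their count ranges.

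In the order of all 6384 circRNAs by mean CPM over the 6 pulldown libraries, hsa_circ_0001181 was at place 30 and hsa_circ_0001206 at place 35. This is an order of counts, since circRNA lengths are not in the file. hsa_circ_0001181 had a mean of 5343 CPM, between hsa_circ_0000418 at 5551 and hsa_circ_0001472 at 5300 CPM. hsa_circ_0001206 had 4777 CPM, between hsa_circ_0070562 at 4915 and hsa_circ_0084582 at 4727 CPM. The gaps to these neighbours were smaller than the SD of each circRNA's own Res RIP libraries, so this mean did not separate them. Within a line, hsa_circ_0000418 was apart from hsa_circ_0001181, with 3644 ± 418 CPM in Sens RIP and 7458 ± 620 in Res RIP. hsa_circ_0001181 had 6326 ± 306 and 4360 ± 1785 CPM there. hsa_circ_0001472 had 4984 ± 1426 and 5615 ± 1126. hsa_circ_0070562 had 4535 ± 1961 and 5294 ± 1239, and hsa_circ_0084582 had 5711 ± 492 and 3744 ± 666. The neighbours differed in IgG. hsa_circ_0000418 and hsa_circ_0084582 had no count in any IgG library, hsa_circ_0001472 had 17 counts in Sens IgG and none in Res IgG, and hsa_circ_0070562 had none in Sens IgG and 13 in Res IgG. By line, the place in mean CPM was 28 in Sens RIP and 45 in Res RIP for hsa_circ_0001206, and 22 and 43 for hsa_circ_0001181.

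Of the 1307 tested circRNAs, 289 had a count in all 6 pulldown libraries. Of these 289, 199 had none in Sens IgG, 150 had none in Res IgG, and 64 had none in Sens IgG with a count in all 3 Res IgG libraries. hsa_circ_0001206 and hsa_circ_0001181 belong to the 64 by the way they were chosen. Their summed Sens RIP counts, 47 and 54, were at places 5 and 3 of the 64, where the median was 13 (range 3 to 137). Their Res RIP counts were at places 15 and 13, and the median was 19 (range 3 to 360). The Res to Sens log2 ratio of the pulldown in mean CPM had a median of 0.26 over the 64, and hsa_circ_0001206 at -0.46 and hsa_circ_0001181 at -0.54 were at places 53 and 55 from the highest. The Res RIP to IgG log2 ratio had a median of 0.88, with hsa_circ_0001206 at place 23 and hsa_circ_0001181 at place 8.

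**Figure D4:**
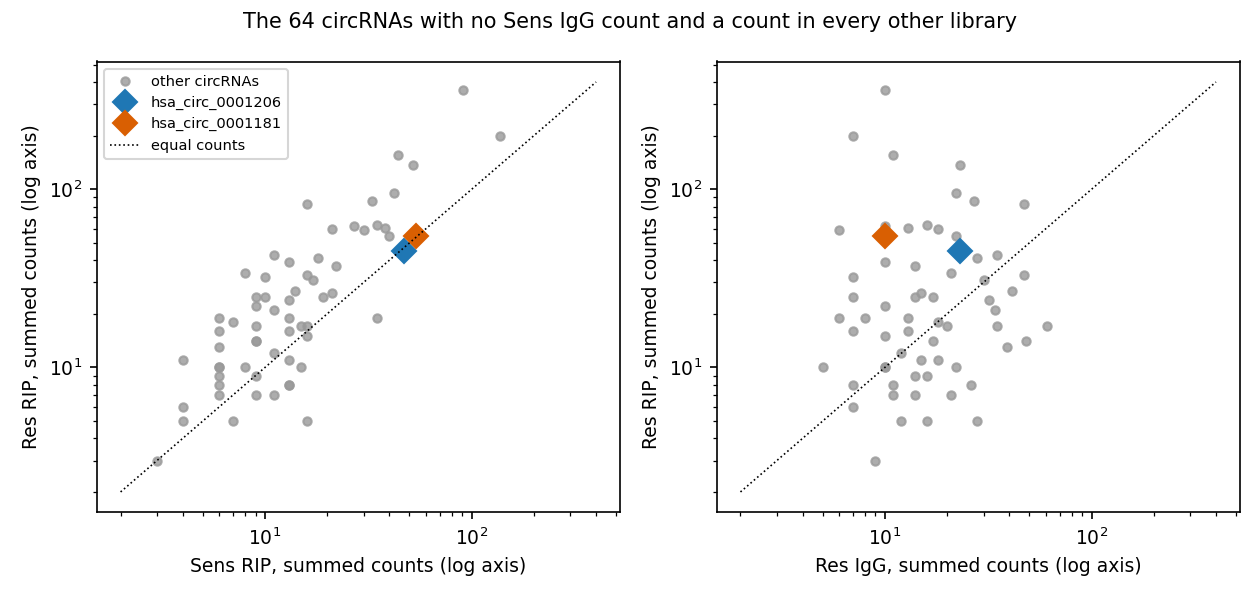
Summed counts of the 64 circRNAs with no Sens IgG count and a count in every other library, on log axes: Res RIP against Sens RIP (left) and Res RIP against Res IgG (right), with a dotted line of equal counts. hsa_circ_0001206 and hsa_circ_0001181 lie on the line of equal counts between the pulldowns, at 47 and 45 and at 54 and 55, while most others have more counts in Res RIP; in Res IgG they have 23 and 10 counts.

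The circRNAs most like each of them were taken by the root mean square difference of centred log2 CPM over the 12 libraries (prior count 2), among 72 others with at least 20 summed counts in the pulldown of each line. Nearest to hsa_circ_0001206 were hsa_circ_0005604 (0.41) and hsa_circ_0003472 (0.57), against a median of 1.00 over the 72. hsa_circ_0005604 had 40 and 55 counts in the pulldowns of Sens and Res, none in Sens IgG and 22 in Res IgG. Nearest to hsa_circ_0001181 were hsa_circ_0000069 (0.48) and hsa_circ_0000417 (0.54), against a median of 0.81. hsa_circ_0000069 had 30 and 59 in the pulldowns, none in Sens IgG and 6 in Res IgG. With a prior count of 0.5 the nearest to hsa_circ_0001206 stayed the same pair, and those to hsa_circ_0001181 became hsa_circ_0006156 (0.42) and hsa_circ_0021570 (0.55), which have counts in Sens IgG. The difference between hsa_circ_0001206 and hsa_circ_0001181 was 0.65, which put hsa_circ_0001181 at place 6 for hsa_circ_0001206 and hsa_circ_0001206 at place 22 for hsa_circ_0001181.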

How the data were processed

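The authors deposited 1 table of raw counts for 12 libraries, with a row for each circRNA and 57 rows for ERCC spike-in. Library names in the sample descriptions tied columns to samples, and titles gave groups. The authors scaled their own analysis to spike-in with RUVSeq, per the labels' protocols, and the table is unscaled. GRCh37 is the build named in the submitters' processing notes, while the aligner, circRNA caller and counting rule are not given in the sources used here. ERCC rows entered neither library sizes nor tests.

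Counts were fitted with edgeR 4.0.16 in R 4.3.3 (TMM, quasi-likelihood test, 1 coefficient per group, 12 libraries, a minimum of 2 counts in 3 libraries, Benjamini-Hochberg adjusted p under 0.05). SEs of the fit were derived as the size of the log2 fold change divided by the square root of its F statistic. The prior degrees of freedom were infinite, so these SEs do not reflect the spread of single circRNAs. The code was tested on simulated data. Ratios are of group means, with a group at 0 set to 3 summed counts. Alternatives were spike-in totals, column totals, DESeq2 1.42.0, other filters, a replicate block and leaving out each library. Named circRNAs are the chosen pair, the 2 most like each, and the neighbours in pulldown level; the circRNAs named with a prior count of 0.5 follow the same rule. The pair and these rules were chosen with earlier results of these data known.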

Additional observations from a re-analysis of the deposited data

Results flagged for a closer look

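The effect of the antibody differed between the lines for 248 circRNAs by the interaction test of edgeR (adjusted p under 0.05), 73 higher and 175 lower in Res. For hsa_circ_0001206 and hsa_circ_0001181 the counts behind this test also made the choice, so no call is given for them.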

How the results depend on the processing

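Log2 ratios of mean CPM are given for hsa_circ_0001206 and then hsa_circ_0001181. For Sens RIP against IgG (5.08 and 5.28, both bounds) they were 3.06 and 3.26 with column totals, 11.50 and 11.69 with spike-in totals, 3.80 and 4.01 with DESeq2 size factors, and 4.10 to 5.10 and 4.30 to 5.30 with single libraries left out. For Res RIP against IgG (1.63 and 2.98) they were 0.68 and 2.02, 7.82 and 9.33, 0.88 and 2.27, and 0.87 to 1.95 and 2.61 to 3.42. For Res IgG against Sens IgG (3.00 and 1.75, bounds) they were 2.01 and 0.75, 3.65 and 2.38, 2.77 and 1.49, and 2.30 to 3.25 and 1.05 to 1.93. For the enrichment change (-3.45 and -2.29, bounds) they were -2.39 and -1.24, -3.68 and -2.36, -2.92 and -1.74, and -3.86 to -2.46 and -2.66 to -1.23. For Res RIP against Sens RIP (-0.46 and -0.54) column totals gave -0.38 and -0.49, and DESeq2 size factors -0.15 and -0.25. Spike-in totals gave -0.034 and 0.027, a turned sign for hsa_circ_0001181, and leaving out libraries gave -0.89 to -0.13 and -0.91 to -0.14. A bound moves with the Sens IgG libraries left out in part by its construction, since fewer counts stand behind the 0. TMM also reset the effective sizes, that of Sens RIP replicate 1 from 3078 to 3717 without Sens IgG replicate 3. The cause of the other shifts was not tested. The delta in RPM was -702 (SE 901) and -890 (SE 568) with all counts of the file as denominator. It was -0.673 and 0.477 per 1000 ERCC counts, and -3232 to -1627 and -2232 to -1253 with single libraries left out.

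The counts of called circRNAs were 654 for Sens RIP against IgG, 780 for Res RIP against IgG, 31 between the pulldowns, 883 between the IgG groups and 248 for the enrichment change. In that order DESeq2 called 235, 234, 19, 364 and 120, and the filter of at least 10 counts in 3 libraries 86, 88, 22, 77 and 57 of 111 tested. No filter gave 380, 540, 17, 833 and 116. Column totals gave 433, 865, 29, 851 and 214, and spike-in totals 855, 877, 58, 876 and 201. The split into higher and lower was 520 and 134 in Sens, 164 and 269 with column totals and 855 and 0 with spike-in totals; in Res it was 440 and 340, 381 and 484, and 877 and 0; between the pulldowns 17 and 14, 18 and 11, and 51 and 7; for the enrichment change 73 and 175, 108 and 106, and 54 and 147. With single libraries left out the ranges were 488 to 654, 631 to 785, 8 to 39, 792 to 886 and 82 to 221; the 8 and the 82 are without Res IgG replicate 2, and 158 enrichment changes were called without Sens IgG replicate 3. With the replicate number as a block the counts were 445, 522, 17, 737 and 166. Same-numbered libraries share only a number: their deviations from the group means correlated between -0.0521 and 0.0503, and 11 of 24 correlated best with their own number. With 10 to 23 counts per group in Res IgG, counting error limits what can be said of that background.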
